A study of Mus musculus with 6 samples.

Results

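The genes examined here were the myeloid chemokines and their receptors in the brain of mice with and without Bahd1, which encodes a protein of repressive chromatin. They were 9 genes chosen by name from the 53801 genes of the counts table: the CC chemokine ligands Ccl9, Ccl6, Ccl3, Ccl4, Ccl2 and Ccl12, the CXC chemokine ligand Cxcl10, and the receptors Ccr1 and Ccr2. All 9 had a row, and all 9 passed the filter of at least 10 counts summed over the samples, as did 23975 genes in all. A frozen brain hemisphere was analysed by RNA-seq from each of 3 Bahd1-WT mice (Bahd1+/+) and 3 Bahd1-KO mice (Bahd1-/-, a constitutive loss of both copies in every tissue, from crosses of heterozygous parents). All 6 were untreated adults of the strain C57BL/6, labelled as about 70 weeks old, and each library came from 1 mouse. A hemisphere holds all cell types of the brain, so that fewer cells of a type and less RNA per cell cannot be told apart.

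Chemokines are small secreted proteins that guide leukocytes, and their receptors are G protein-coupled receptors on the responding cells. Ccl2 and Ccl12 are ligands of Ccr2, the receptor that brings monocytes from blood to inflamed tissue. Ccl3, Ccl6 and Ccl9 are ligands of Ccr1, found on monocytes and neutrophils, whereas Cxcl10, an interferon-induced gene, acts through Cxcr3 on activated T cells. In the brain, microglia and the macrophages of its borders are the main resident myeloid cells.

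The promoters of 5 of the genes are shown because these genes carry the contrast described below: Ccl9, Ccl6, Ccr1 and Ccr2 had lower mean levels in Bahd1-KO brains, and Cxcl10, the interferon-responsive member, had nearly the same mean in both genotypes. Each is the stretch of 250 bases before the RefSeq transcription start (assembly GRCm38.p6), written 5′ to 3′ on the strand of the gene. Capitals mark matches on either strand to 3 motifs: the interferon-stimulated response element half-sites GAAANNGAA, the PU.1 core GAGGAA (PU.1 is a master transcription factor of myeloid cells) and the 10-letter NF-kB consensus.
Ccl9, chr11:83578637-83578886, minus strand: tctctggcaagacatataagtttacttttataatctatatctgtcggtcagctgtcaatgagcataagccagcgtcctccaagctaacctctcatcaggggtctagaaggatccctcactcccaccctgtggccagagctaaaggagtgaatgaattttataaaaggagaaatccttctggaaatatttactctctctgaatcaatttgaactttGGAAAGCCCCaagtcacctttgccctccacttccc
Ccl6, chr11:83593088-83593337, minus strand: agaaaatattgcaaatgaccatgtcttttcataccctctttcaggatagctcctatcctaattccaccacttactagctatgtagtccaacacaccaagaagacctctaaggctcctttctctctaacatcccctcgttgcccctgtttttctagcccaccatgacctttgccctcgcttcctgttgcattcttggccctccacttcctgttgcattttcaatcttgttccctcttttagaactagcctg
Ccr1, chr9:123968693-123968942, minus strand: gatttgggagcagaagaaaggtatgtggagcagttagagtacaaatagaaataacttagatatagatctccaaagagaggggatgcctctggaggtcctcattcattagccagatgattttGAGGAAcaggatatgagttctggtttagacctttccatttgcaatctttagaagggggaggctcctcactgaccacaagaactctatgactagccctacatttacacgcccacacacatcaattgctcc
Ccr2, chr9:124101933-124102182, plus strand: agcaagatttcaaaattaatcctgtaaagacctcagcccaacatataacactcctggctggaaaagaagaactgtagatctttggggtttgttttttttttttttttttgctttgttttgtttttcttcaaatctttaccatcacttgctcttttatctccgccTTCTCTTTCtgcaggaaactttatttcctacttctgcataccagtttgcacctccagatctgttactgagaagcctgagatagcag
Cxcl10, chr5:92348890-92349139, minus strand: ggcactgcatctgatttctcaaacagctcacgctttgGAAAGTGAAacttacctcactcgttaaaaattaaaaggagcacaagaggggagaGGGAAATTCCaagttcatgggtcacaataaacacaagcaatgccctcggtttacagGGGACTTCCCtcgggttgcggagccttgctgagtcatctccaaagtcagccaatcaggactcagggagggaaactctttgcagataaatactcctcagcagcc
The promoter of Cxcl10 held 1 interferon motif at positions -213 to -205 from the start and 2 NF-kB motifs. That of Ccr2 held 1 interferon motif, that of Ccr1 held 1 PU.1 core, that of Ccl9 held 1 NF-kB motif close to the start, and that of Ccl6 held none of the 3. Of the 32851 promoters of the same length, 7.13% held the interferon motif, 23.3% the PU.1 core and 3.9% the NF-kB motif. Among the other genes, Ccl12 held a PU.1 core, and Ccl3 held an interferon motif (-39 to -31) that overlaps a PU.1 core (-33 to -28). The RefSeq start of Ccr2 lies inside the gene as annotated by GENCODE, so most of the stretch shown for Ccr2, with its motif, is within the gene as counted. These letter matches are descriptions of the sequence and not binding sites. No promoter was printed for Ccl2 or Ccl4.

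Libraries held 42297150 to 93557948 counts, of which the 9 genes together had 569 to 965 in the Bahd1-WT samples and 287 to 416 in the Bahd1-KO samples. Counts of Bahd1 were 1383, 844 and 1099 in Bahd1-WT and 0, 14 and 1 in Bahd1-KO replicates 1, 2 and 3, which matched the genotype on the label in each case. Levels are given in CPM (counts scaled to a library of 1000000, on TMM-normalized library sizes), where 3 counts, the floor used here, equal 0.0315 to 0.0690 CPM. Markers of neurons, astrocytes, oligodendrocytes and microglia were present in all 6 libraries. Libraries stood apart in 2 ways that touch the genes below. Bahd1-WT replicates 1 and 2 held markers of lung epithelium at a summed 139 and 30.1 CPM, against 3.16 CPM in replicate 3 and 1.13 to 2.35 CPM in Bahd1-KO. The level of genes also moved with their GC content: the tenth of genes with the highest GC content stood above the tenth with the lowest by 2.19 on the log2 scale in Bahd1-KO replicate 2, and by 0.77 in replicate 3 and -0.11 in replicate 1, whereas in Bahd1-WT this difference was -0.62, -1.28 and -0.89, each relative to the mean over libraries.

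In the comparison of Bahd1-KO with Bahd1-WT brains, the receptors Ccr1 and Ccr2 and the ligands Ccl9 and Ccl6 had mean levels 1.55 to 2.82 times higher in Bahd1-WT. Ccl2, Ccl3, Ccl4, Ccl12 and Cxcl10 had group means at most 1.2-fold apart. None of the 9 genes was called at an adjusted p under 0.05 with at least a 2-fold change in edgeR's quasi-likelihood test, a rule that called 2 of all 23975 genes (0.00834%). At an unadjusted p under 0.05, 3 of the 9 genes were lower (Ccl9, Ccr1 and Ccr2) and 0 were higher, where 12% of all genes were lower. At an adjusted p under 0.1, 2 were lower (Ccl9 and Ccr1), against 4.77% of all genes. The same 2 genes were lower in every Bahd1-KO sample than in every Bahd1-WT sample, a pattern that 19.3% of all genes had. The DESeq2 test with a normal prior, the type of test used in the study, called Ccl9 and Ccr1 lower at its adjusted p under 0.05 and 2-fold, where 0.909% of all genes were called lower. Both calls were lost when DESeq2 was run with the offset for GC content and length described below, which called 0 of the 9 genes and 0.196% of all genes lower. For Ccl9 the adjusted p of this DESeq2 run stayed under 0.05, at 0.0453, and only the fold, -0.58 in log2, fell short. By RT-qPCR on brain RNA, the paper reports lower Ccl9 in Bahd1-KO than in Bahd1-WT, and Ccr1 is not among the genes it lists there. The median log2 fold change of the 9 genes was -0.25, against -0.06 for all genes tested. Replicates are separate mice. The p-values set the genotype difference against the spread among the 3 mice of each genotype, estimated in part from all genes. That spread includes the differences in lung markers and GC trend described above.

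**Figure D1:**
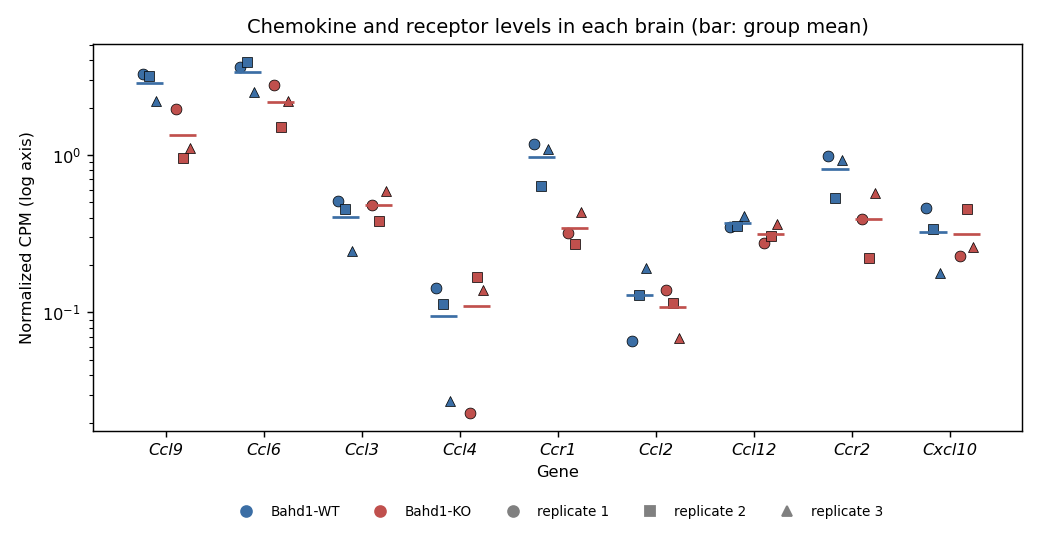
Level of each gene in each brain, in normalized CPM on a log axis. Points are samples (blue Bahd1-WT, red Bahd1-KO; shape gives the replicate) and bars are group means. For Ccl9 and Ccr1 the 3 red points lie below the 3 blue points, and for the other 7 genes the groups overlap.

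Ccr1, the receptor shared by Ccl3, Ccl6 and Ccl9, was counted 107, 39 and 80 times in Bahd1-WT replicates 1, 2 and 3 and 14, 26 and 25 times in Bahd1-KO replicates 1, 2 and 3. In normalized CPM these were 1.17, 0.632 and 1.09 in Bahd1-WT and 0.322, 0.273 and 0.432 in Bahd1-KO. The groups did not overlap, and Bahd1-WT replicate 2 was nearest to the Bahd1-KO samples. The mean level was 0.964 ± 0.290 CPM in Bahd1-WT (SD, n = 3) and 0.342 ± 0.0814 CPM in Bahd1-KO (SD, n = 3), a log2 fold change of -1.51 with a standard error of 0.337 and a 95% interval of -2.27 to -0.74. Its unadjusted p was 0.00169 and its adjusted p 0.0634 in edgeR's quasi-likelihood test. DESeq2 with the normal prior gave -1.34 at an adjusted p of 0.00437, and -0.55 at an adjusted p of 0.176 with the GC and length offset.

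Ccr2, the receptor of Ccl2 and Ccl12 on inflammatory monocytes, was counted 90, 33 and 68 times in Bahd1-WT and 17, 21 and 33 times in Bahd1-KO. These were 0.984, 0.535 and 0.927 CPM in Bahd1-WT and 0.391, 0.221 and 0.570 CPM in Bahd1-KO. Bahd1-WT replicate 2 lay just below Bahd1-KO replicate 3, so the groups overlapped by 1 sample each. The mean was 0.815 ± 0.245 CPM in Bahd1-WT and 0.394 ± 0.175 CPM in Bahd1-KO (SD, n = 3 each). The log2 fold change was -1.08 with a standard error of 0.403 and an interval of -2.0 to -0.16, at an unadjusted p of 0.026 and an adjusted p of 0.114 in the edgeR test. The unadjusted p was 0.0804 without Bahd1-WT replicate 1, 0.0719 without Bahd1-WT replicate 3 and 0.0741 without Bahd1-KO replicate 2.

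Ccl9, a Ccr1 ligand made by macrophages and other myeloid cells, was counted 298, 196 and 161 times in Bahd1-WT and 85, 91 and 64 times in Bahd1-KO. Its levels were 3.26, 3.17 and 2.195 CPM in Bahd1-WT and 1.95, 0.956 and 1.105 CPM in Bahd1-KO. The groups did not overlap, with the lowest Bahd1-WT sample and the highest Bahd1-KO sample close to each other. The mean level was 2.875 ± 0.590 CPM in Bahd1-WT and 1.34 ± 0.538 CPM in Bahd1-KO (SD, n = 3 each), a log2 fold change of -1.12 with a standard error of 0.324 and an interval of -1.85 to -0.38. The unadjusted p was 0.0077 and the adjusted p 0.0697 in the edgeR test, and DESeq2 with the normal prior gave -1.03 at an adjusted p of 0.011, and -0.58, under 2-fold, at an adjusted p of 0.0453 with the GC and length offset.

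Ccl6, the neighbour of Ccl9 and also a Ccr1 ligand, was counted 330, 242 and 183 times in Bahd1-WT and 121, 143 and 127 times in Bahd1-KO. These counts were 3.61, 3.92 and 2.495 CPM in Bahd1-WT and 2.78, 1.502 and 2.19 CPM in Bahd1-KO. Bahd1-KO replicate 1 stood above Bahd1-WT replicate 3, so the groups overlapped. The means were 3.34 ± 0.748 and 2.16 ± 0.641 CPM (SD, n = 3 each), and the log2 fold change of -0.64 (standard error 0.296, interval -1.31 to 0.04) had an unadjusted p of 0.0611 and an adjusted p of 0.174 in the edgeR test.

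The inflammatory ligands Ccl3 and Ccl4, which activated microglia and macrophages release, had means slightly higher in Bahd1-KO, within the spread of the samples. Ccl3 had 0.514, 0.4535 and 0.245 CPM in Bahd1-WT and 0.483, 0.378 and 0.587 CPM in Bahd1-KO. The groups overlapped, and the log2 fold change was 0.24 with a standard error of 0.356, an interval of -0.57 to 1.05 and an adjusted p of 0.66. Ccl4 was counted 13, 7 and 2 times in Bahd1-WT and 1, 16 and 8 times in Bahd1-KO. The 2 counts of Bahd1-WT replicate 3 and the 1 count of Bahd1-KO replicate 1 lie under the floor of 3 counts, and the exact Poisson interval of that 1 count runs from 0.03 to 5.57 counts. The log2 fold change of Ccl4 was 0.30 with an interval of -1.34 to 1.94 and an adjusted p of 0.794, so that no difference was detectable at this depth.

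Of the Ccr2 ligands, Ccl2, the main monocyte attractant, was counted 6, 8 and 14 times in Bahd1-WT and 6, 11 and 4 times in Bahd1-KO. Its log2 fold change was -0.24 with an interval of -1.48 to 0.99 and an adjusted p of 0.775. Ccl12, a close relative of Ccl2 in the mouse, was more even, with 0.350, 0.356 and 0.409 CPM in Bahd1-WT and 0.276, 0.3045 and 0.363 CPM in Bahd1-KO. The groups of Ccl12 overlapped, and its log2 fold change was -0.24 with an interval of -0.90 to 0.42 and an adjusted p of 0.589.

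Cxcl10, the interferon-induced ligand of Cxcr3, was counted 42, 21 and 13 times in Bahd1-WT and 10, 43 and 15 times in Bahd1-KO. The levels of 0.459, 0.340 and 0.177 CPM in Bahd1-WT and 0.230, 0.4515 and 0.259 CPM in Bahd1-KO were mixed between genotypes. Its log2 fold change was -0.02 with an interval of -1.02 to 0.97 and an adjusted p of 0.976.

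Per kilobase of exon, the scale on which genes can be compared, Ccl6 had the highest level of the 9 genes in all 6 libraries. In Bahd1-WT the order was Ccl6 at 1.86 ± 0.417 CPM per kb, Ccl9 at 0.944 ± 0.194, Ccl12 at 0.692 ± 0.0606, Ccl3 at 0.528 ± 0.184 and Ccr1 at 0.340 ± 0.1025 (SD, n = 3). Below these came Cxcl10 at 0.1445, Ccl4 at 0.143, Ccr2 at 0.121 and Ccl2 at 0.113 CPM per kb, which did not differ beyond their SDs of 0.0362 to 0.0905. As neighbours in this order, Ccl9 and Ccl12, Ccl12 and Ccl3, and Ccl3 and Ccr1 also lay within the sum of their SDs. In Bahd1-KO, Ccl3 at 0.630 ± 0.137 and Ccl12 at 0.585 ± 0.0825 CPM per kb stood above Ccl9 at 0.439 ± 0.177, each within these SDs, and Ccr2 at 0.0582 ± 0.0259 and Ccl2 at 0.0945 ± 0.0308 CPM per kb had the lowest means, within the sum of their SDs.

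The 6 CC ligands lie on chromosome 11 and the receptors on chromosome 9, in arrays of related genes (GRCm38). Ccl2 (chr11:82035571-82037453) and Ccl12 (chr11:82101845-82103400) are on the plus strand, 64391 bases apart. Ccl9 (chr11:83572919-83578636) and Ccl6 (chr11:83587882-83593087) are on the minus strand, 9245 bases apart, followed by Ccl3 (chr11:83647844-83649355, minus strand) and Ccl4 (chr11:83662584-83664683, plus strand). Ccr1 (chr9:123962124-123968692, minus strand) lies 133257 bases from Ccr2 (chr9:124101950-124113557, plus strand). Cxcl10 (chr5:92346638-92348889, minus strand) is on chromosome 5, on the strand opposite to Art3, which overlaps it. Ccl2 and Ccl6 also overlap genes on the other strand, Gm17268 and E230016K23Rik, and the study's methods give strand-specific counting. Of the stretches of 50 exon bases, 1.97% in Ccl9 and 1.91% in Ccr2 also occur in other genes, and 0 in the other 7.

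Along the arrays, a lower level was not a property of every neighbour. Of the 4 other chemokine ligands tested on that stretch of chromosome 11 (Ccl7, Ccl11, Ccl8 and Ccl5), 0 had an unadjusted p under 0.05. Ccl7, a monocyte attractant beside Ccl2, had a log2 fold change of -1.02 with a standard error of 0.745 and an adjusted p of 0.357. Of the 6 other receptors tested on chromosome 9, among them Ccr9, Cxcr6 and Ccr3, also 0 had an unadjusted p under 0.05. The difference between members and neighbours was not tested.

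**Figure D2:**
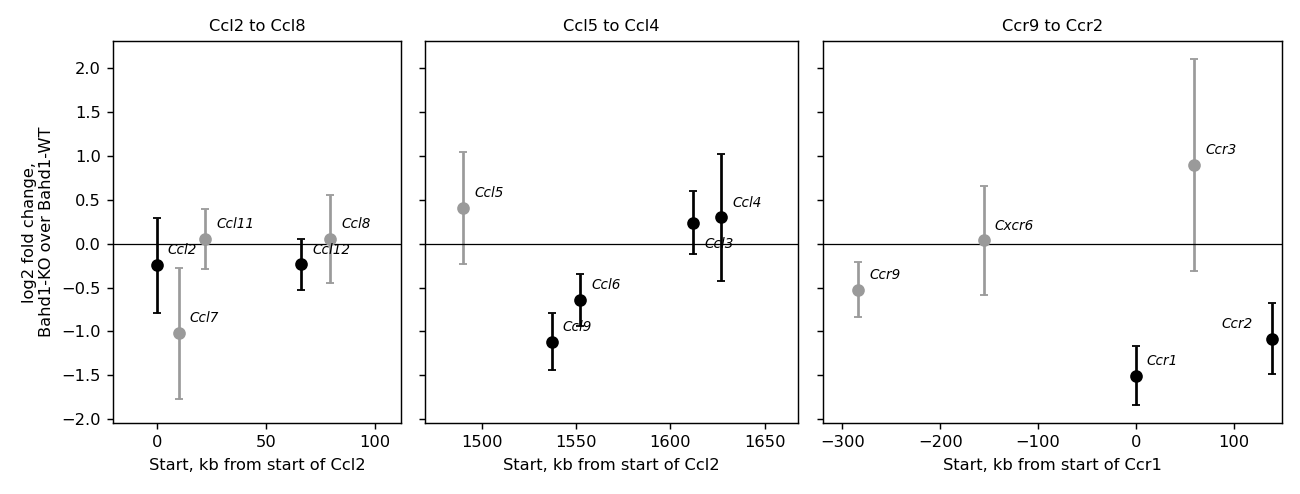
Log2 fold change (Bahd1-KO over Bahd1-WT, bar: standard error) of the chemokine ligand genes of chromosome 11, in 2 panels, and of the receptor genes of chromosome 9 from Ccr9 to Ccr2, against the distance of the gene's start in kb from that of Ccl2 or Ccr1. Black points are the genes described here and grey points other chemokine genes; Ccl9 at -1.12 and Ccr1 at -1.51 are the lowest in their panels, and the other receptor genes of chromosome 9 lie outside the range drawn.

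Count ratios of neighbouring genes do not depend on the depth of a library. The ratio of Ccl9 to Ccl6 counts was 0.903, 0.81 and 0.88 in Bahd1-WT and 0.702, 0.636 and 0.504 in Bahd1-KO, without overlap. On the offset scale the ratio was 0.836, 0.726 and 0.826 in Bahd1-WT and 0.715, 0.779 and 0.519 in Bahd1-KO, and the groups overlapped. The mean difference of the count ratio was -0.50 on the log2 scale, with a two-sided exact permutation p of 0.1, the smallest that 3 against 3 samples allow, and 0.4 after adjustment over the 4 pairs computed. The ratio of Ccr1 to Ccr2 was 1.19, 1.18 and 1.18 in Bahd1-WT and 0.824, 1.24 and 0.758 in Bahd1-KO (exact permutation p = 0.4, adjusted p = 0.8). The ratios of Ccl3 to Ccl4 and of Ccl2 to Ccl12 overlapped between genotypes as well, with exact permutation p of 0.8 and 0.7. The pairs were chosen after the counts were seen, and a GC content of 42.5% in Ccl9 and 45.8% in Ccl6 means that the GC trend of a library does not cancel fully in their ratio.

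The exons of the 9 genes had a median GC content of 43.9%, from 39.1% in Ccr1 and 39.2% in Ccr2 to 49.2% in Ccl4, against 49.1% for all genes tested. An offset for GC content and length in each library moved the log2 fold change of Ccl9 to -0.69 (standard error 0.22, unadjusted p = 0.0104, adjusted p = 0.118), of Ccr1 to -0.855 (standard error 0.352, unadjusted p = 0.0355, adjusted p = 0.204), of Ccl6 to -0.43 (adjusted p = 0.321) and of Ccr2 to -0.46 (adjusted p = 0.503). With it, 2 of the 9 genes had an unadjusted p under 0.05 and were lower, where 11.0% of all genes were. The offset levels of Ccl9 were 2.92, 2.53 and 1.88 CPM in Bahd1-WT and 1.76, 1.42 and 1.35 CPM in Bahd1-KO, which still did not overlap. Those of Ccr1 were 0.979, 0.4695 and 0.900 CPM in Bahd1-WT and 0.291, 0.457 and 0.5555 CPM in Bahd1-KO, so that Bahd1-KO replicate 3 passed Bahd1-WT replicate 2. The share of all genes lower in every Bahd1-KO sample was 13.6% on this scale, and the median log2 fold change was 0.01 for the 9 genes and -0.04 for all genes.

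**Figure D3:**
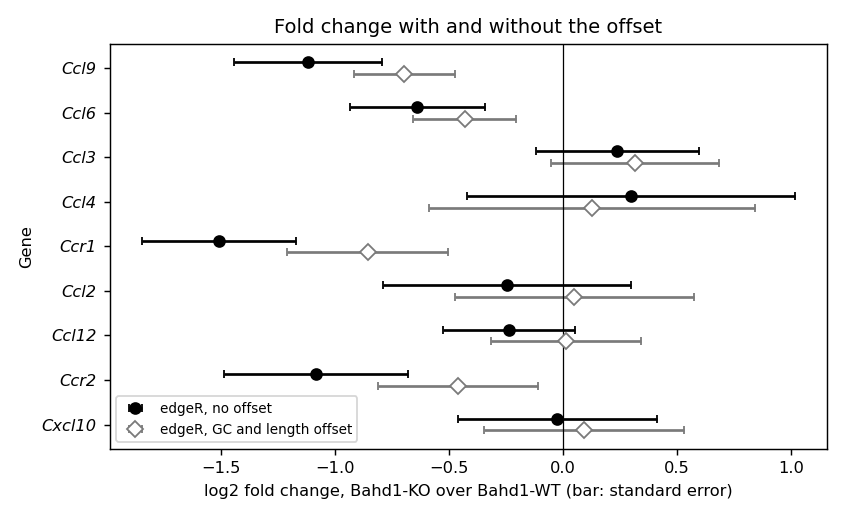
Log2 fold change of each gene (Bahd1-KO over Bahd1-WT, bar: standard error) without (black) and with (open diamonds) the offset for GC content and length. With the offset Ccr1 moves from -1.51 to -0.855, Ccr2 from -1.08 to -0.46 and Ccl9 from -1.12 to -0.69, and all 3 stay below 0.

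Other genes of the chemokine system were counted from lists. Of 31 other chemokine ligands, 24 were tested, of which 7 were lower and 3 higher at an unadjusted p under 0.05 (median log2 fold change -0.14). With the offset 5 were lower and 2 higher. Of all 23975 genes, 2867 were lower and 4760 higher without the offset. Cx3cl1, the membrane-bound ligand by which neurons signal to microglia, was higher in Bahd1-KO at 261, 524 and 324 CPM against 154, 99.7 and 151 CPM, a log2 fold change of 1.45 (adjusted p = 0.0634 in the edgeR test) that was 0.38 with the offset. Cxcl15, a chemokine of lung epithelium, was counted at 7.57, 1.73 and 0.15 CPM in Bahd1-WT and at 0.0690 CPM or less in Bahd1-KO, in the same order as the lung markers within Bahd1-WT. Cxcl14, a chemokine of epithelium and neurons, had a log2 fold change of 0.615 (adjusted p = 0.0679) and of -0.07 with the offset. The CXC ligands Cxcl9 and Cxcl11, unlike Cxcl10, were lower in every Bahd1-KO sample, a pattern that 19.3% of all genes had. Their log2 fold changes were -2.11 and -2.04 (adjusted p = 0.0984 and 0.113 in the edgeR test), and -1.69 and -1.60 with the offset. Both stood at 0.175 CPM or less in every library. Of 22 other receptors, 16 were tested, of which 1 was lower and 0 higher: Cxcr2, the neutrophil receptor, had 0.820, 0.3725 and 0.682 CPM in Bahd1-WT and 0.161, 0.042 and 0.311 CPM in Bahd1-KO, a log2 fold change of -1.95 (adjusted p = 0.0795) that stayed at -1.69 with the offset. Next by p were Ackr1, a scavenging receptor of venules, at 0.35 (adjusted p = 0.172) and Ccr9, a homing receptor of gut T cells, at -0.53 (adjusted p = 0.266). No gene of the 2 lists was called at the adjusted threshold with 2-fold in the edgeR test.

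For the genes that act below the receptors and above the ligands, the counts by direction depended on the offset. Of 28 genes of chemokine receptor signal transduction, 9 were higher and 1 lower at an unadjusted p under 0.05 (median 0.30), among them Arrb2, the beta-arrestin that takes receptors off the surface, at 1.32 (adjusted p = 0.0634), and the G protein subunit gene Gnai2 at 0.94 (adjusted p = 0.0664). With the offset these were 0.34 and 0.02, and in the list 2 were higher and 2 lower, with a median of 0. Grk6, a kinase that desensitizes receptors, went from 0.84 to -0.11. Of 27 genes that induce chemokine genes, 5 were higher and 3 lower (median 0.18), and with the offset 2 were higher and 5 lower (median 0.02). The NF-kB subunits Rela at 1.66 (adjusted p = 0.0634) and Nfkb2 at 1.65 (adjusted p = 0.0638) and the adaptor Ticam1 at 1.25 (adjusted p = 0.0749) led this list, and were 0.325, 0.29 and 0.29 with the offset. Il1b, the inflammatory cytokine interleukin-1 beta, named after its values were seen, was among the lower at -1.43 (adjusted p = 0.0991), and at -1.23 with the offset. Over all genes, 4760 of 23975 were higher and 2867 lower at this threshold without the offset, similar shares to those of the inducers, and 2314 were higher and 2649 lower with it.

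Markers of the cells that could carry these transcripts were set beside them. Of 14 microglia markers, 5 were higher and 0 lower at an unadjusted p under 0.05 (median log2 fold change 0.24), but 2 were higher and 3 lower with the offset (median 0.02). Their summed level was 413 to 497 CPM in Bahd1-WT and 472 to 477 CPM in Bahd1-KO. The lowest p were those of Tmem119 (log2 fold change 1.38, 0.09 with the offset), the complement gene C1qc (1.76, 0.68 with the offset) and C1qb (0.88, -0.34 with the offset). The microglial receptor Cx3cr1 was at 36.2, 24.7 and 38.1 CPM in Bahd1-WT and 37.0, 31.7 and 43.7 CPM in Bahd1-KO. Of 10 border macrophage markers, 1 was higher and 1 lower, and 0 were higher and 2 lower with the offset (21 to 36.7 CPM against 21.8 to 25.1 CPM summed), the scavenger receptor gene Stab1 at 1.20 (0.25 with the offset) and the hyaluronan receptor gene Lyve1 at -1.10 (-0.95 with the offset). Of 9 monocyte markers, 2 were lower and 0 higher, with sums of 94.9 to 126 and 99.4 to 149 CPM, and the defining markers Ly6c2 and Plac8 at 0.0230 to 0.227 CPM in all libraries, near the floor. One of those lower was Vcan, the matrix proteoglycan versican, which brain cells other than monocytes also make, with means of 41.7 CPM in Bahd1-WT and 26.4 CPM in Bahd1-KO (log2 fold change -0.66, adjusted p = 0.0743, and -0.27 with the offset). Together with Fn1 at 42.8 and Ace at 24.5 CPM in Bahd1-WT, Vcan made up most of the monocyte sums. Of 12 lymphocyte markers, 1 was higher and 0 lower, with sums of 10.4 to 12.6 and 11.1 to 13.7 CPM. Most of these sums came from Cd4, with means of 7.99 CPM in Bahd1-WT and 7.485 CPM in Bahd1-KO, whereas Cd3e was at 0.0545 to 0.208 CPM.

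The summed markers of neutrophils did not overlap between the genotypes, by a narrow gap, and those of alveolar macrophages did not as long as Lpl was included. Of 12 neutrophil markers, 3 were lower and 2 higher at an unadjusted p under 0.05, and their sums were 13.2, 12.3 and 11.2 CPM in Bahd1-WT and 8.73, 6.14 and 10.9 CPM in Bahd1-KO. In sign alone, 6 of the 12 log2 fold changes were negative and 6 positive. The collagenase Mmp8 (log2 fold change -1.69, adjusted p = 0.0638) and the calcium-binding protein gene S100a8 (-1.28, adjusted p = 0.0833) were lower, next to Cxcr2. The 2 that were higher, named after their values were seen, were the granule genes Mpo (2.65, adjusted p = 0.0688) and Camp (1.59, adjusted p = 0.142), both at 0.38 CPM or less in every library. S100a8 alone stood at 2.89, 3.01 and 3.395 CPM in Bahd1-WT and 1.655, 0.525 and 1.69 CPM in Bahd1-KO. In replicate 3 of each genotype this was wider apart than the neutrophil sums of 11.2 and 10.9 CPM, so their separation depended on S100a8. Of 11 alveolar macrophage markers tested of 12 listed, 3 were lower and 0 higher, with sums of 41.2, 43.0 and 33.5 CPM in Bahd1-WT and 27.1, 15 and 26.4 CPM in Bahd1-KO. Lpl, which the brain also expresses, made up most of this sum (35.15 CPM in Bahd1-WT, 21.3 CPM in Bahd1-KO). Without Lpl the sums were 7.35, 3.48 and 1.36 CPM in Bahd1-WT and 1.59, 1.56 and 1.61 CPM in Bahd1-KO, so that Bahd1-WT replicate 3 lay below all 3 Bahd1-KO samples and the separation was lost. The chitinase-like Chil3 had a log2 fold change of -2.88 (adjusted p = 0.0906). Its levels were 3.86, 1.47 and 0.164 CPM in Bahd1-WT and 0.253, 0.105 and 0.415 CPM in Bahd1-KO, so the groups overlapped. The defining marker Marco was at 0 to 0.0864 CPM in all libraries. Of 10 lung epithelium markers, 9 were lower and 0 higher, and the median log2 fold change was -5.74. The part of these cells in the lower levels of Ccr1, Ccr2, Ccl9 and Ccl6 was not tested. Bahd1-WT replicate 3, a single sample picked for its low lung markers after these were seen, gave against the 3 Bahd1-KO samples a log2 fold change of -1.68 for Ccr1 (adjusted p = 0.58), -1.26 for Ccr2 (adjusted p = 0.58), -0.73 for Ccl9 (adjusted p = 0.711) and -0.22 for Ccl6 (adjusted p = 0.867), in an edgeR fit that takes the lone sample to vary like the others.

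**Figure D4:**
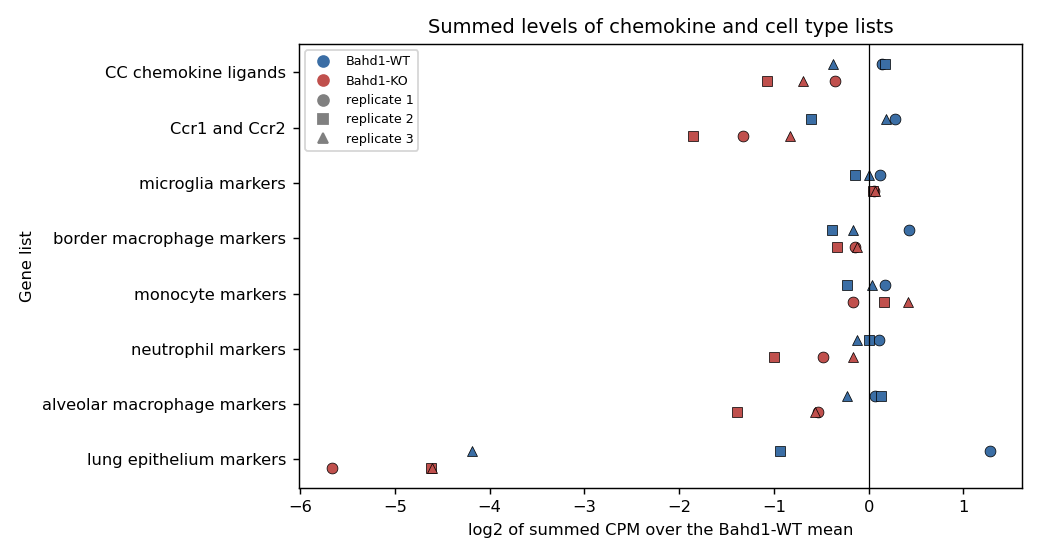
Summed CPM of gene lists in each sample as the log2 ratio to the Bahd1-WT mean (points as in the plot of levels per brain). The 2 receptors, the neutrophil and the alveolar macrophage markers lie lower in all 3 Bahd1-KO samples than in all 3 Bahd1-WT samples. For the neutrophil markers the gap is narrow, and for the alveolar macrophage markers it holds only with Lpl. The microglia markers stay near 0, and the lung epithelium markers spread over more than 5 log2 units within Bahd1-WT.

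The genes whose pattern over the 6 samples was most like that of a member were ranked, for the 7 members with at least 10 counts in every sample (not Ccl2 and Ccl4), among 16901 genes by the mean absolute difference of log2 CPM, each centred on its mean. For Ccr2 the nearest were Gm9017, at a mean difference of 0.131, and Pabpc5 at 0.161, and among the nearest 3 of Ccr1 were Gm37773 at 0.219 and 9930111J21Rik2 at 0.224. For Ccl9 the nearest were Cftr at 0.059, AC113305.1 at 0.076 and the interferon-inducible GTPase gene Iigp1 at 0.079. The nearest of Ccl6 was AC154738.2 at 0.044, that of Ccl3 was C130012C08Rik at 0.113, that of Ccl12 was Poc1b at 0.032 and that of Cxcl10 was Gm38340 at 0.118. The pattern of 6 samples carries genotype, GC trend and library together, and these likenesses are descriptions only.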

How the data were processed

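Per the labels and the paper, polyadenylated RNA of one brain hemisphere per mouse was made into stranded libraries. The RNeasy kit named for extraction is of a type that loses RNA under 200 nucleotides, which the paper does not state. Per the submitters' processing notes, reads were trimmed with Cutadapt 1.11, aligned to GRCm38 with STAR 2.5.0a (the supplementary methods also name Tophat2) and counted on exons with featureCounts 1.4.6-p3. The counts deposited by the authors are raw, in 1 column per mouse, and 0 columns came from elsewhere.

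Columns were matched to samples by their labels. Genes with at least 10 counts over the 6 samples were tested with edgeR 4.0.16 (R 4.3.3): TMM factors, a quasi-likelihood test of genotype with no other term, and p-values adjusted after Benjamini and Hochberg over all 23975 genes. Intervals are 95% intervals from the same fit. Exact Poisson intervals and the floor of 3 counts cover counting error only, as reads are not independent molecules. The script was checked on simulated counts. The offset used splines of log2 CPM on GC content (5 degrees of freedom) and log length (3), fitted in each library to 13283 genes with the GENCODE M21 annotation. Alternatives were other normalizations and filters, DESeq2 1.42.0, a replicate block, the offset and leaving out samples.

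The 9 genes and the lists were chosen with earlier results of these data known. All 9 are given in full. From each other list, names were taken from the 3 genes with the lowest p among those with at least 10 counts in every sample of 1 genotype and from defining markers; some genes of these lists are not reported here. Ccl7, Cx3cr1, Cxcl9 and Cxcl11 were named for their position or role after their values were seen. Promoters came from RefSeq (GRCm38.p6), where 7 of the 9 genes matched.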

Additional observations from a re-analysis of the deposited data

How the results depend on the processing

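Ccr1, Ccr2, Ccl9 and Ccl6 had a negative log2 fold change under every alternative run (Ccr1 -1.73 to -0.55, Ccr2 -1.46 to -0.29, Ccl9 -1.45 to -0.58, Ccl6 -0.83 to -0.22). The number of the 9 genes called at an adjusted p under 0.05 with 2-fold, 0 in edgeR, was 2 (Ccl9 and Ccr1) in DESeq2 with the prior, in DESeq2 without it and with no filter beyond 1 count, 1 (Ccr1) with total counts, and 0 to 2 with each sample left out in turn, where 2 (Ccl9 and Ccr1) were called without Bahd1-KO replicate 1. With the offset in DESeq2 both calls of DESeq2 were lost, that of Ccl9 by fold only. Over all genes, the calls were 2 in edgeR, 2522 and 2761 in DESeq2 with and without the prior, 2770 without the filter, 2007 with total counts, 4 with the offset, 126 with the offset in DESeq2, 7 with the replicate block, 12 with the block and the offset, 0 without Bahd1-WT replicate 1, Bahd1-WT replicate 2 or Bahd1-KO replicate 3, 4 without Bahd1-WT replicate 3 or Bahd1-KO replicate 2, 3988 without Bahd1-KO replicate 1, and 1 with Bahd1-WT replicate 3 alone; the cause was not tested. The number with an unadjusted p under 0.05, 3 in edgeR, was 2 to 4 with samples left out, 1 (Ccl9) with the offset and the replicate block, and 1 (Ccr1) with Bahd1-WT replicate 3 alone against the Bahd1-KO samples, an alternative added after seeing the data. Upper-quartile factors, which moved the median of all genes to -0.20, added Ccl6.

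The sign of the genes near 0 turned. Cxcl10 was 0.001 with DESeq2 size factors, 0.05 with total counts, 0.092 with the offset, 0.042 with the offset in DESeq2, 0.094 with the offset and the block, 0.845 against Bahd1-WT replicate 3 alone and -0.411 to 0.323 with samples left out. Ccl2 was 0.051 with the offset, 0.012 with it in DESeq2, 0.087 with it and the block, and -0.59 to 0.168 with samples left out. Ccl12 was 0.014 with the offset and 0.009 with it in DESeq2. Ccl3 was -0.02 to 0.459 and Ccl4 -0.144 to 0.764 with samples left out. With the replicate block alone in edgeR, 0 of the 9 genes were called and 3 had an unadjusted p under 0.05. The deviations of same-numbered samples correlated at -0.644, -0.656 and -0.144. Each group was centred on its own mean, so these values are tied to each other and cannot decide whether the numbers pair the samples. Same-numbered samples are different mice. The filter of edgeR's filterByExpr dropped Ccl2 and Ccl4. Counts of 1 to 16 limit what can be said of these 2 genes.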
